A study of Mus musculus with 24 samples.

Results

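The 37 genes described here encode the working parts of the lysosome: 11 proteases, 11 enzymes that cut sugar chains or sulfate groups off them, 6 proteins of lipid breakdown and lipid export, 7 proteins of the lysosomal membrane, the proton pump subunit Atp6v0d2 and the transcription factor Tfeb. They were chosen by gene symbol and were 37 of the 15542 genes tested, on 52 of the 55681 gene probes of the array. Tfeb is printed on the array under its older symbol Tcfeb and was matched through the RefSeq gene table. RNA of snap-frozen whole liver was measured on one-colour arrays from males of 3 strains, the inbred A/J and C3H/HeJ and the wild-derived inbred WSB/EiJ, aged 20 weeks. The mice had eaten a choline- and folate-deficient (CFD) diet or its control diet for 12 weeks, from the age of 8 weeks. Both diets were amino acid-defined and carried added iron. The CFD diet contained neither choline nor folic acid, with methionine at 0.17%. The control diet had methionine at 0.4%, folic acid at 2 mg/kg and choline, as its bitartrate, at 0.3%. The 6 groups were A/J CFD, A/J control, C3H/HeJ CFD, C3H/HeJ control, WSB/EiJ CFD and WSB/EiJ control, with 4 arrays each. The labels do not say that each array was a separate animal, so a p-value here measures only how far these samples spread, which may be technical.

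Lysosomes are acid compartments in which proteases, glycosidases, sulfatases and lipases take apart material delivered by endocytosis, phagocytosis and autophagy. A proton pump, the vacuolar ATPase, keeps the interior acid, and heavily glycosylated membrane proteins such as Lamp1 and Lamp2 line the inner face. In hepatocytes lysosomes digest autophagosomes and take part in lipid droplet turnover, and in liver macrophages they degrade engulfed cells and lipoproteins. Tfeb and its relatives bind an E-box motif, CACGTG, with preferred flanking bases in the promoters of many lysosomal genes.

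Promoter sequence was looked up for the members in the RefSeq table (GRCm38.p6, from 250 bases before to 50 bases after each start), which held 32 of the 37. The motif CACGTG, the same on both strands, was present in 12 of these 32 (37.5%), against 8.093% of the 27025 genes in that table. The longer form TCACGTGA, which contains the first motif, was present in 5 of the 32 (15.625%), namely Cln3, Ctsa, Ctsd, Gla and Mcoln1, against 1.125% of all genes. The full CLEAR element, TCACGTGA with G before it and C after it, was present in 1 (Cln3; 3.125% against 0.37%). A match of letters is a description and not a binding site. The stretches below run 5′ to 3′ on the gene's strand, with CACGTG in capitals. Lamp1 and Mcoln1 carry the motif close to their starts, Cln3, Ctsd and Gla carry the longer form, and Ctss and Cd63, among the largest rises described below, had no CACGTG in these windows.
Lamp1, chr8:13159081-13159160, plus strand: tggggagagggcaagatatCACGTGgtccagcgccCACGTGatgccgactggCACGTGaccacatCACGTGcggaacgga
Mcoln1, chr8:3500439-3500488, plus strand: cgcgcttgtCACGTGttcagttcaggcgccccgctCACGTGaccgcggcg
Cln3, chr7:126583337-126583396, minus strand: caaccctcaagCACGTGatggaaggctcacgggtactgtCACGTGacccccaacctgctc
Ctsd, chr7:142387878-142387937, minus strand: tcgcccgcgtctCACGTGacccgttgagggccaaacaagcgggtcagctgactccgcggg
Gla, chrX:134601182-134601241, minus strand: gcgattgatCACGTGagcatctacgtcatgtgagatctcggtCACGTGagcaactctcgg
Ctss, chr3:95526706-95526785, plus strand: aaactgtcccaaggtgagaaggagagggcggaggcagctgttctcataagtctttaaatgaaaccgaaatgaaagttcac
Cd63, chr10:128909265-128909344, plus strand: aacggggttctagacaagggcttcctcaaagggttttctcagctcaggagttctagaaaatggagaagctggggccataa
The 12 genes with CACGTG were Cln3, Ctsa, Ctsd, Ctsf, Ctsl, Gaa, Gla, Glb1, Lamp1, Mcoln1, Naglu and Sgsh.

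On the deficient diet some of the 37 genes rose and others fell. A small group, led by the proteases Ctss and Ctsk, the membrane proteins Cd63 and Laptm5 and the pump subunit Atp6v0d2, rose several-fold in C3H/HeJ and WSB/EiJ, while the hydrolase Gaa fell in these strains. The size of the Atp6v0d2 rise in C3H/HeJ is not exact, with 2 of the 4 control arrays well above background and a smaller change on its second probe. By limma with Benjamini-Hochberg adjustment over all genes, held to 0.05, 8 of 37 members changed in A/J (7 higher, 1 lower), 24 of 37 in C3H/HeJ (15 higher, 9 lower) and 26 of 37 in WSB/EiJ (13 higher, 13 lower). These were 21.6%, 64.9% and 70.3% of the members, against 10.4%, 48.1% and 73.6% of all genes tested; in WSB/EiJ the members' share lay near the background. The members called higher were 18.9% in A/J, 40.5% in C3H/HeJ and 35.1% in WSB/EiJ, against 5.71%, 17.4% and 23.7% of all genes. The members called lower were 2.7%, 24.3% and 35.1%, against 4.73%, 30.7% and 50% of all genes. The median log2 change of the members was 0.15, 0.11 and -0.01, beside -0.065, -0.16 and -0.33 over all genes. The deficient and control arrays did not overlap for 13, 16 and 26 members, against 17.5%, 35% and 69.8% of all genes. In whole liver fewer cells of a type and less RNA per cell cannot be told apart.

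Cd63, Ctsd, Hexa, Laptm5 and Psap rose in each of the 3 strains, and Lamp2 was the one member called lower in each, though with spike-in scaling it passed in none and was above 0 in WSB/EiJ, and in A/J its call was lost under 7 of 14 alternatives. A further 7 genes rose in C3H/HeJ and WSB/EiJ (Asah1, Atp6v0d2, Ctsk, Ctss, Ids, Npc2 and Ppt1) and 8 fell in both (Ctsf, Gaa, Gla, Glb1, Lamp1, Mcoln1, Scarb2 and Sgsh), of which Gla, Lamp1 and Mcoln1 turn positive with quantile normalization. Ctsa, Ctsb, Ctsl, Cln3, Gusb, Naglu, Npc1 and Tfeb passed the threshold in none of the 3 under percentile scaling. The plot of log2 changes by strain sets the members side by side.

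**Figure D1:**
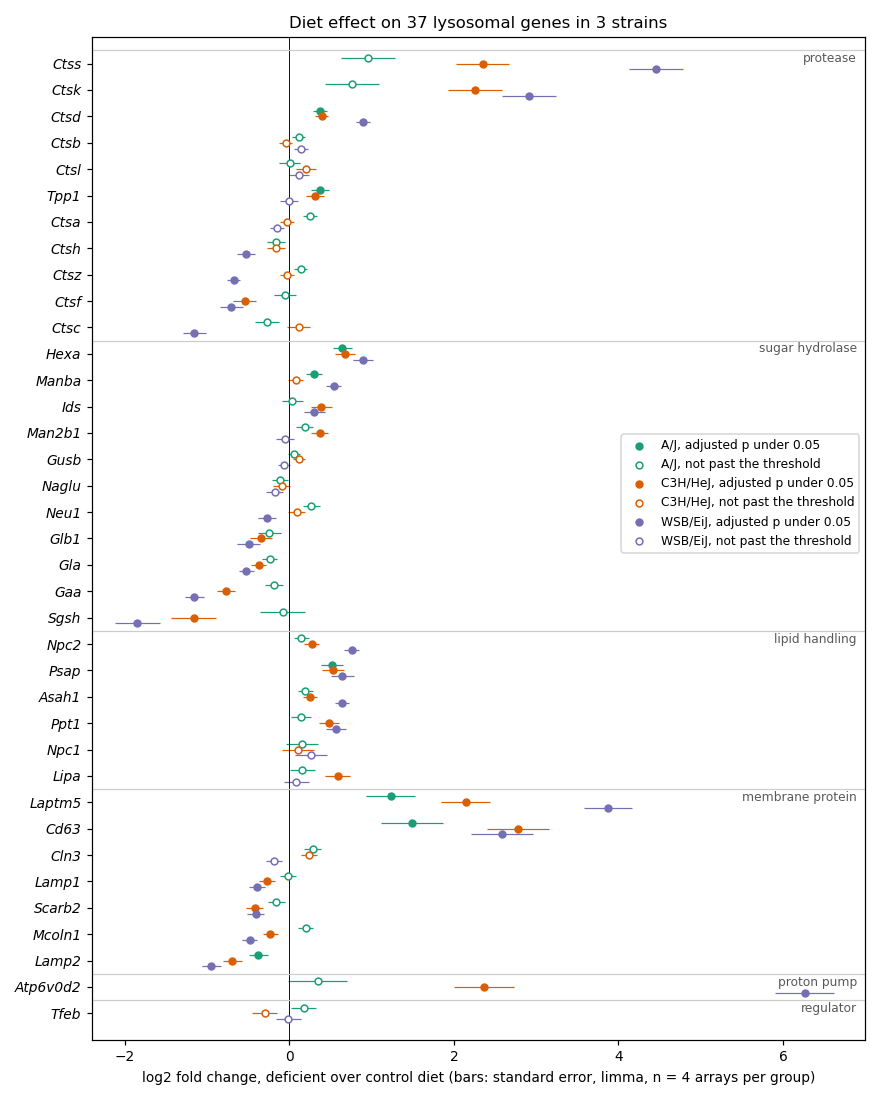
Log2 fold change, deficient over control diet, of each of the 37 lysosomal genes in A/J, C3H/HeJ and WSB/EiJ, with its standard error from limma (n = 4 arrays per group); filled points passed the adjusted p of 0.05. Atp6v0d2, Ctss, Laptm5, Ctsk and Cd63 extend to the right, up to 6.27 for Atp6v0d2 in WSB/EiJ, whose control arrays were all below background, and Sgsh extends to the left, down to -1.85; the falls of Gla, Lamp1 and Mcoln1 in C3H/HeJ and of these with Ctsh, Ctsz and Neu1 in WSB/EiJ turn positive with quantile normalization.

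All 37 members passed the filter on dim probes, 36 of them well above background on all 24 arrays and Atp6v0d2 on 18. The share of gene spots above background ran from 44.4% to 56.0% per array, with 0 saturated. Each array was scaled to its 75th percentile, so a level of 0 is that percentile and all levels below are log2 values relative to it. On the first principal component of all genes (44.3% of the variance) A/J control replicate 4 (-11.4) and A/J CFD replicate 4 (-25.7) lay toward each other's group, the other A/J control arrays lying between -54.5 and -35.6 and the other A/J CFD arrays between -2.9 and 25. C3H/HeJ CFD replicate 4 (-10.6) lay apart from the other C3H/HeJ CFD arrays, which lay between 22.3 and 60.7. Without both A/J arrays, an alternative chosen after seeing the data, 9 members passed in A/J: Ctss (1.32, adjusted p = 0.0166) and Ctsk (1.10, adjusted p = 0.0455) passed and Manba did not (adjusted p = 0.0625). Leaving out single arrays gave between 2 calls (without A/J CFD replicate 3) and 10 calls (without A/J CFD replicate 4) in A/J. It gave 4 without A/J CFD replicate 1, A/J control replicate 1 or A/J control replicate 3, and 5 without A/J CFD replicate 2. The share of all genes called in these fits is not given, so the counts may follow all genes. The 75th percentile of the signal itself was higher on deficient than on control arrays, at 205 to 299 against 203 to 235 in A/J, 238 to 360 against 158 to 226 in C3H/HeJ and 334 to 386 against 165 to 185 in WSB/EiJ (linear intensity). Relative to that percentile more genes fell than rose in C3H/HeJ and WSB/EiJ; of the genes called, 36.1% and 32.1% were higher, against 52.3% and 49.6% with quantile normalization. Scaled on 7 spike-in probes instead, the median of all genes moved to 0.29, 0.33 and 0.67 in A/J, C3H/HeJ and WSB/EiJ.

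Of the 11 proteases 2 rose in A/J, 4 rose and 1 fell in C3H/HeJ, and 3 rose and 4 fell in WSB/EiJ. The share higher was 18.2%, 36.4% and 27.3%, against 5.71%, 17.4% and 23.7% of all genes, and the share lower 0%, 9.09% and 36.4%, against 4.73%, 30.7% and 50%. Among them the cysteine protease cathepsin S (Ctss), which trims the invariant chain of MHC class II in antigen-presenting cells, had the largest rise. In A/J, Ctss stood at 4.97, 4.29, 4.95 and 3.87 on the deficient arrays against 3.31, 4.04, 2.90 and 4.03 on the control arrays. In C3H/HeJ it stood at 5.39, 5.51, 4.36 and 3.92 on the deficient arrays against 2.49, 2.29, 2.87 and 2.13 on the control arrays. In WSB/EiJ it stood at 5.96, 6.04, 5.49 and 5.94 on the deficient arrays against 1.61, 1.22, 1.29 and 1.49 on the control arrays. The groups overlapped in A/J, where A/J CFD replicate 4 was the lowest of the deficient arrays and lay below 2 of the controls, and were separate in the other strains. The log2 change was 0.95 ± 0.32 in A/J (SE; adjusted p = 0.0652), 2.35 ± 0.32 in C3H/HeJ (1.63e-05) and 4.46 ± 0.32 in WSB/EiJ (6.39e-10), the last a 22.0-fold rise. By group mean WSB/EiJ had the lowest control level of the 3 strains and the highest deficient level.

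Cathepsin K (Ctsk), a collagen-cutting protease known best from osteoclasts, rose in the same strains. Ctsk stood at -0.82, -1.40, -0.67 and -1.53 in A/J deficient livers against -1.90, -1.96, -2.35 and -1.28 in A/J controls. The C3H/HeJ levels were 0.41, 0.37, -0.12 and -1.04 on the deficient arrays against -2.03, -1.74, -2.89 and -2.76 on the control arrays. The WSB/EiJ levels were 1.76, 1.84, 0.81 and 1.72 on the deficient arrays against -1.34, -1.73, -1.11 and -1.36 on the control arrays. A/J again overlapped, and the lowest of the WSB/EiJ deficient arrays, replicate 3, still lay above every WSB/EiJ control. Ctsk rose by 2.26 ± 0.33 on the log2 scale in C3H/HeJ (adjusted p = 2.73e-05) and by 2.92 ± 0.33 in WSB/EiJ (1.80e-07), while its difference of 0.76 ± 0.33 in A/J did not pass (0.142).

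The aspartic protease cathepsin D (Ctsd), made by nearly every cell, showed a smaller and more uniform rise. Ctsd stood at 6.27, 6.20, 6.27 and 6.35 in A/J deficient livers against 5.95, 5.93, 6.05 and 5.67 in A/J controls. For C3H/HeJ the levels were 6.32, 6.40, 6.41 and 6.56 on the deficient arrays against 6.10, 5.90, 6.07 and 6.05 on the control arrays. For WSB/EiJ the levels were 6.96, 6.93, 6.86 and 6.80 on the deficient arrays against 5.99, 5.90, 6.06 and 6.05 on the control arrays. The groups were separate in all 3 strains. The log2 changes were 0.37 ± 0.08 (adjusted p = 0.00668), 0.39 ± 0.08 (8.11e-04) and 0.89 ± 0.08 (1.26e-08), and a second Ctsd probe gave 0.37, 0.57 and 0.76. With the mean of the gene's probes the A/J call of Ctsd was lost (limma, adjusted p = 0.134). Tpp1, which removes tripeptides from protein ends, rose in A/J (0.37 ± 0.11) and C3H/HeJ (0.31 ± 0.11) and had a difference of -0.01 ± 0.11 in WSB/EiJ. Tpp1 ranged from 1.30 to 1.68 on the deficient arrays against 0.88 to 1.22 on the control arrays in A/J, from 1.30 to 1.63 on the deficient arrays against 0.94 to 1.36 on the control arrays in C3H/HeJ and from -0.09 to 0.23 on the deficient arrays against -0.02 to 0.14 on the control arrays in WSB/EiJ. Its groups were separate in A/J and overlapped in the other strains. The Tpp1 call in A/J was lost without any one of A/J CFD replicates 2 or 3 or A/J control replicates 1, 3 or 4 (adjusted p up to 0.110), and that in C3H/HeJ without C3H/HeJ CFD replicate 4 or C3H/HeJ control replicates 2 or 4 (up to 0.0858).

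**Figure D2:**
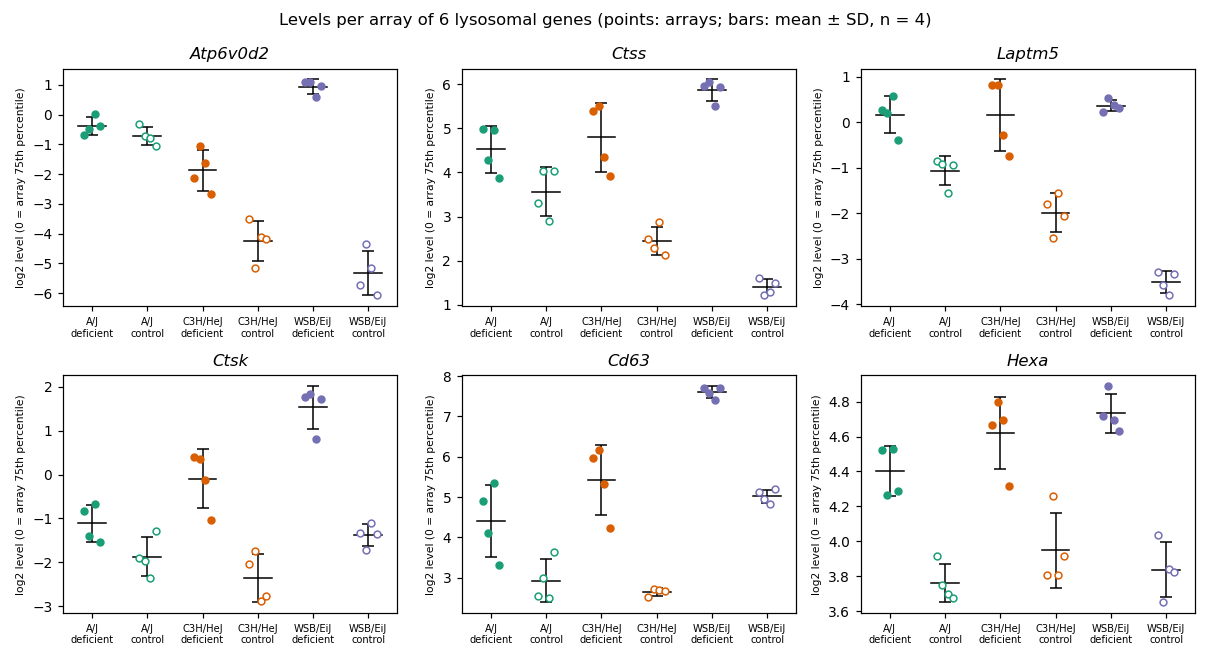
Log2 level of Atp6v0d2, Ctss, Laptm5, Ctsk, Cd63 and Hexa on each array relative to the array's 75th percentile, by strain and diet, with deficient left of control in each strain; points are arrays and bars the mean ± SD of 4 arrays. WSB/EiJ deficient arrays lie far above WSB/EiJ controls for the first 5 genes, as for Ctss at 5.49 to 6.04 against 1.22 to 1.61, and A/J groups overlap for Atp6v0d2, Ctss, Ctsk and Cd63.

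The remaining proteases were lower or passed no threshold. Cathepsin C (Ctsc), which activates the granule proteases of leukocytes, stood at 2.26, 2.28, 2.07 and 2.10 on the deficient arrays against 3.68, 3.25, 3.45 and 2.98 on the control arrays in WSB/EiJ. All WSB/EiJ deficient arrays were lower than all controls, a log2 change of -1.16 ± 0.14 (adjusted p = 4.64e-07). Ctsc ranged from 2.89 to 3.11 on the deficient arrays against 3.14 to 3.43 on the control arrays in A/J and from 2.85 to 3.11 on the deficient arrays against 2.39 to 3.12 on the control arrays in C3H/HeJ, with differences of -0.27 ± 0.14 and 0.11 ± 0.14 that did not pass. A second Ctsc probe, above background on 6 arrays, gave -2.05 in WSB/EiJ. The cysteine protease Ctsf stood at 1.43 to 2.16 on the deficient arrays against 2.25 to 2.52 on the control arrays in C3H/HeJ and at 1.48 to 1.83 on the deficient arrays against 2.17 to 2.46 on the control arrays in WSB/EiJ. Ctsf groups were separate in both strains, with log2 changes of -0.54 ± 0.14 and -0.71 ± 0.14, the WSB/EiJ one turning to 0.29 with spike-in scaling, and overlapped in A/J (-0.05 ± 0.14).

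Ctsz, a carboxypeptidase, was lower in WSB/EiJ deficient livers under percentile scaling (-0.68 ± 0.08; adjusted p = 3.35e-07) but 0.13 with quantile normalization and 0.33 with spike-in scaling. Its levels there ranged from 6.68 to 6.87 on the deficient arrays against 7.37 to 7.52 on the control arrays, without overlap. Ctsz differences in A/J (0.14 ± 0.08) and C3H/HeJ (-0.03 ± 0.08) did not pass. The aminopeptidase Ctsh was also lower in WSB/EiJ (-0.53). With quantile normalization it was 0.27 and passed as a rise (limma, adjusted p = 8.17e-04). Cathepsins B and L, the abundant cysteine proteases of most cells, passed in no strain under percentile scaling. Ctsb differences then lay between -0.04 and 0.14, and Ctsl differences between 0.00 and 0.20. In WSB/EiJ these depended on the scaling. Ctsb was 0.96 with quantile normalization and 1.14 with spike-in scaling, and Ctsl 1.17 and 1.12. Ctsa, the carboxypeptidase that protects beta-galactosidase and sialidase from degradation, ranged from 6.83 to 6.99 on the deficient arrays against 6.52 to 6.83 on the control arrays in A/J, and its difference of 0.25 ± 0.09 there did not pass although the groups, before rounding, were separate. Ctsa differed by -0.03 in C3H/HeJ and -0.15 in WSB/EiJ on the probe used, and its second probe gave 0.68 and 0.27. With quantile normalization the Ctsa differences in C3H/HeJ and WSB/EiJ were 0.33 and 0.60, and with spike-in scaling 0.46 and 0.85.

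Of the 11 sugar-cutting enzymes and sulfatases, 2 rose in A/J, 3 rose and 4 fell in C3H/HeJ, and 3 rose and 5 fell in WSB/EiJ. In WSB/EiJ 27.3% were higher and 45.5% lower, near the 23.7% and 50% of all genes, and in C3H/HeJ the 36.4% lower lay near 30.7%; 18.2% and 27.3% were higher in A/J and C3H/HeJ, against 5.71% and 17.4%. Hexa, the alpha subunit of beta-hexosaminidase A that degrades GM2 ganglioside, rose in each strain. In A/J, Hexa stood at 4.52, 4.26, 4.53 and 4.29 on the deficient arrays against 3.92, 3.75, 3.70 and 3.67 on the control arrays. C3H/HeJ arrays gave 4.67, 4.80, 4.70 and 4.32 on the deficient arrays against 3.80, 4.26, 3.81 and 3.92 on the control arrays. WSB/EiJ arrays gave 4.72, 4.89, 4.69 and 4.63 on the deficient arrays against 4.03, 3.65, 3.84 and 3.83 on the control arrays. No deficient array overlapped the controls of its strain. The log2 changes were 0.64 ± 0.12 (adjusted p = 0.00176), 0.67 ± 0.12 (1.85e-04) and 0.89 ± 0.12 (1.44e-06), and the A/J call was kept in all alternatives run.

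Manba, the beta-mannosidase, rose by 0.54 ± 0.09 in WSB/EiJ and by 0.30 ± 0.09 in A/J. It ranged from 1.03 to 1.33 on the deficient arrays against 0.56 to 0.94 on the control arrays in WSB/EiJ and from 1.41 to 1.53 on the deficient arrays against 1.13 to 1.23 on the control arrays in A/J, separate in both, and from 1.36 to 1.48 on the deficient arrays against 1.11 to 1.48 on the control arrays in C3H/HeJ, where the groups overlapped (0.08 ± 0.09). The A/J call of Manba (adjusted p = 0.0437) was lost without any one of 13 of the 24 arrays, 7 of them in A/J (all but A/J CFD replicate 4) and the others C3H/HeJ CFD replicate 3, C3H/HeJ control replicate 1, WSB/EiJ CFD replicates 2 and 4 and WSB/EiJ control replicates 2 and 4 (adjusted p up to 0.126). Man2b1, the alpha-mannosidase, rose in C3H/HeJ (0.37 ± 0.11), with levels of 4.38 to 4.76 on the deficient arrays against 3.87 to 4.43 on the control arrays. Its differences in A/J (0.18 ± 0.11, levels of 4.66 to 4.86 on the deficient arrays against 4.49 to 4.76 on the control arrays) and WSB/EiJ (-0.06 ± 0.11, levels of 4.76 to 5.01 on the deficient arrays against 4.80 to 5.02 on the control arrays) did not pass, and the groups overlapped in all 3 strains. Ids, which removes sulfate from iduronate, rose in C3H/HeJ (0.39) and WSB/EiJ (0.30) and differed by 0.04 in A/J; its C3H/HeJ call was lost without C3H/HeJ CFD replicates 2 or 3 or C3H/HeJ control replicate 2 (adjusted p up to 0.0693), and its WSB/EiJ call without WSB/EiJ CFD replicates 1, 2 or 4 or WSB/EiJ control replicates 1 or 4 (up to 0.0988).

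The falls among the sugar hydrolases were largest for Sgsh and Gaa. Gaa is the acid alpha-glucosidase that breaks down glycogen in lysosomes. In A/J, Gaa stood at 5.87, 6.05, 5.77 and 6.12 on the deficient arrays against 6.10, 6.24, 6.26 and 5.97 on the control arrays. In C3H/HeJ it stood at 3.90, 3.76, 4.24 and 4.22 on the deficient arrays against 4.81, 4.93, 4.81 and 4.65 on the control arrays. In WSB/EiJ it stood at 4.17, 4.21, 4.27 and 4.07 on the deficient arrays against 5.39, 5.27, 5.51 and 5.20 on the control arrays. The A/J groups overlapped, and the others were separate. Gaa was 1.71-fold lower in C3H/HeJ (log2 change -0.77 ± 0.11, adjusted p = 3.17e-05) and 2.23-fold lower in WSB/EiJ (-1.16 ± 0.11, 2.97e-08), with -0.19 ± 0.11 in A/J (0.295). A second Gaa probe above background on all arrays gave -0.05, -0.89 and -1.10 in A/J, C3H/HeJ and WSB/EiJ.

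Sgsh, the sulfamidase of heparan sulfate breakdown, was measured by a pair of adjoining probes on the minus strand of chromosome 11 (mm9), and they differed. The brighter one, at chr11:119204865-119204924, stood at 5.73, 5.66, 5.98 and 7.05 in C3H/HeJ deficient livers against 7.01, 7.89, 7.17 and 7.01 in C3H/HeJ controls. The WSB/EiJ levels were 6.77, 7.30, 7.34 and 6.90 on the deficient arrays against 9.18, 8.84, 8.56 and 9.13 on the control arrays. C3H/HeJ CFD replicate 4 overlapped the C3H/HeJ controls, and the WSB/EiJ groups were separate. Its log2 change was -1.16 ± 0.27 in C3H/HeJ (adjusted p = 0.00199), -1.85 ± 0.27 in WSB/EiJ (5.24e-06) and -0.08 ± 0.27 in A/J (0.874), where it stood at 6.61, 7.0, 6.34 and 7.39 on deficient against 7.01, 6.87, 6.73 and 7.05 on control arrays, overlapping. The other probe, at chr11:119204805-119204864, stood at 1.56, 1.62, 1.65 and 1.60 in WSB/EiJ deficient livers against 1.61, 1.65, 1.82 and 1.61 in WSB/EiJ controls. Those groups overlapped, and the log2 changes of this probe were 0.13, -0.08 and -0.07 in A/J, C3H/HeJ and WSB/EiJ. On the control diet the brighter probe was 2.01 higher in WSB/EiJ than in A/J on the log2 scale, and the other probe differed by 0.0025. The fall of Sgsh was thus seen on 1 of its 2 probes, and why the probes differ was not tested.

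**Figure D3:**
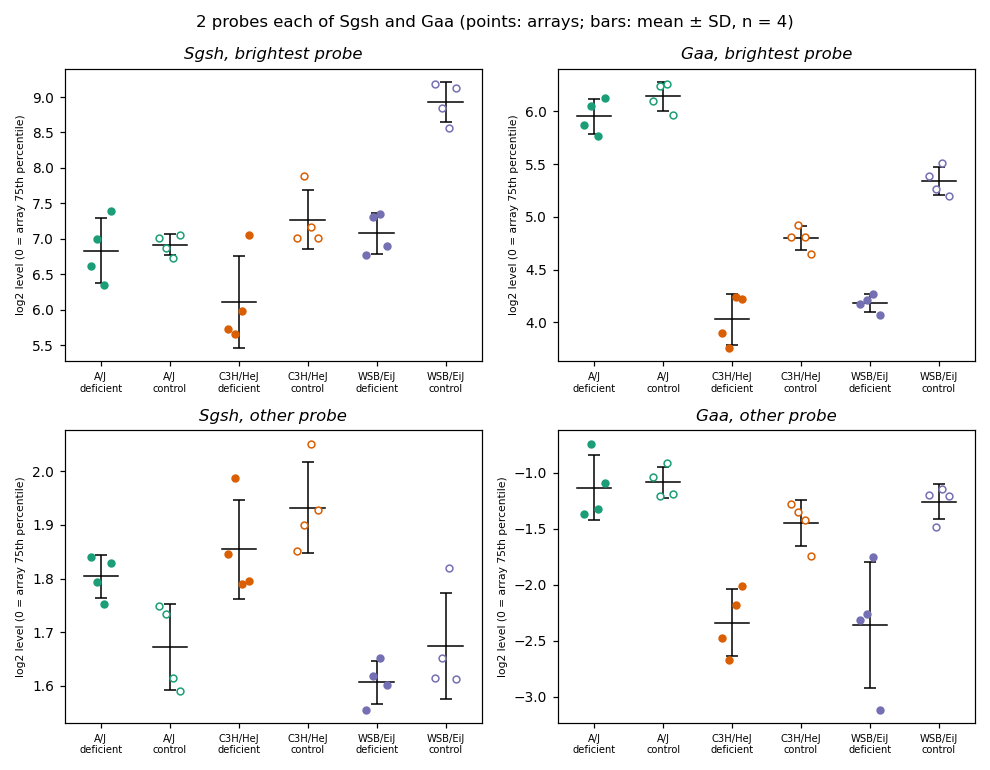
Log2 level on each array of the brightest and of another probe above background on all arrays for Sgsh (left) and Gaa (right), relative to the array's 75th percentile, with deficient left of control in each strain; bars are the mean ± SD of 4 arrays. Both Gaa probes are lower in C3H/HeJ and WSB/EiJ deficient livers, while the Sgsh probes give -1.85 and -0.07 in WSB/EiJ.

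Gla, the alpha-galactosidase that clears globotriaosylceramide, had negative log2 changes in C3H/HeJ (-0.37) and WSB/EiJ (-0.53) under percentile scaling. These turned to 0.03 and 0.34 with quantile normalization, the WSB/EiJ value passing as a rise (limma, adjusted p = 0.0183). Glb1, the beta-galactosidase, fell in both (-0.35 and -0.49), turning positive with spike-in scaling (0.14 and 0.51). The C3H/HeJ call of Glb1 (adjusted p = 0.0464) was lost without any one of 19 arrays. The sialidase Neu1 was lower in WSB/EiJ under percentile scaling (-0.27 ± 0.10). With quantile normalization it was 0.36 and passed as a rise (limma, adjusted p = 3.86e-04). Its levels in WSB/EiJ were 4.86 to 5.07 on the deficient arrays against 5.17 to 5.37 on the control arrays, without overlap. The WSB/EiJ call was lost without WSB/EiJ CFD replicates 2 or 4 or WSB/EiJ control replicate 3 (adjusted p up to 0.0716). Neu1 ranged from 5.11 to 5.39 on the deficient arrays against 4.78 to 5.18 on the control arrays in A/J (0.27 ± 0.10) and from 5.27 to 5.72 on the deficient arrays against 5.35 to 5.58 on the control arrays in C3H/HeJ (0.09 ± 0.10), overlapping in both, and neither difference passed. Naglu, another heparan sulfate enzyme, and Gusb, the beta-glucuronidase, passed in no strain. Naglu differences lay between -0.18 and -0.09. Gusb differences lay between -0.06 and 0.11, but its second probe, above background on 17 arrays, gave -0.21, 0.65 and 0.67.

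None of the 6 genes of lipid breakdown and export was lower in any strain: 1 rose in A/J, 5 rose in C3H/HeJ and 4 rose in WSB/EiJ. These were 16.7%, 83.3% and 66.7% higher, against 5.71%, 17.4% and 23.7% of all genes. Psap, the precursor of the saposins that present sphingolipids to hydrolases, rose in all 3. In A/J, Psap stood at 5.63, 5.53, 5.59 and 5.49 on the deficient arrays against 5.24, 5.16, 5.27 and 4.48 on the control arrays. The C3H/HeJ levels were 5.69, 5.85, 5.55 and 5.56 on the deficient arrays against 5.27, 4.99, 5.19 and 5.07 on the control arrays. For WSB/EiJ the levels were 5.79, 6.05, 6.02 and 5.77 on the deficient arrays against 5.26, 5.17, 5.26 and 5.37 on the control arrays. Deficient and control arrays were separate in each strain, and A/J control replicate 4 lay below the other A/J controls. The log2 changes were 0.52 ± 0.13 (adjusted p = 0.0166), 0.53 ± 0.13 (0.00330) and 0.64 ± 0.13 (2.34e-04); the A/J call was lost without A/J CFD replicate 1 or 3 (adjusted p up to 0.0558), and the change was 0.36 without both replicates numbered 4.

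Npc2, which carries cholesterol to the export protein Npc1 inside the lysosome, stood at 3.96, 4.10, 3.81 and 3.94 on the deficient arrays against 3.36, 3.03, 3.29 and 3.1 on the control arrays in WSB/EiJ. It ranged from 3.79 to 4.01 on the deficient arrays against 3.53 to 3.80 on the control arrays in C3H/HeJ and from 3.70 to 3.86 on the deficient arrays against 3.53 to 3.70 on the control arrays in A/J. The groups overlapped in C3H/HeJ alone. Npc2 rose by 0.76 ± 0.09 in WSB/EiJ (adjusted p = 3.14e-07) and by 0.27 ± 0.09 in C3H/HeJ (0.0175), and its difference of 0.14 ± 0.09 in A/J did not pass. Npc1 itself passed in no strain, with differences between 0.10 and 0.26. The acid ceramidase Asah1 rose by 0.64 ± 0.09 in WSB/EiJ, with levels of 1.69 to 1.94 on the deficient arrays against 0.95 to 1.27 on the control arrays, and by 0.25 ± 0.09 in C3H/HeJ, with levels of 1.59 to 1.81 on the deficient arrays against 1.33 to 1.52 on the control arrays. In A/J Asah1 ranged from 1.54 to 1.69 on the deficient arrays against 1.33 to 1.60 on the control arrays and overlapped (0.19 ± 0.09).

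Ppt1, which strips palmitate from proteins, stood at 0.48, 0.36, 0.13 and -0.30 on the deficient arrays against -0.44, -0.29, -0.34 and -0.16 on the control arrays in C3H/HeJ and ranged from 0.45 to 0.60 on the deficient arrays against -0.16 to 0.05 on the control arrays in WSB/EiJ. Only C3H/HeJ CFD replicate 4 overlapped the C3H/HeJ controls, and the WSB/EiJ groups were separate. Ppt1 rose by 0.48 ± 0.12 and 0.56 ± 0.12, with 0.15 ± 0.12 in A/J (levels of -0.88 to -0.72 on the deficient arrays against -1.13 to -0.83 on the control arrays, overlapping). Lipa, the acid lipase of cholesteryl esters and triglycerides, rose in C3H/HeJ alone among the 3 strains by its adjusted p (0.58; 0.16 in A/J and 0.08 in WSB/EiJ), and no difference between strains in its diet effect passed. The C3H/HeJ calls of Asah1 and Npc2 were lost without C3H/HeJ CFD replicate 2 or C3H/HeJ control replicate 4, and that of Npc2 also without C3H/HeJ CFD replicate 1 (adjusted p up to 0.0860 and 0.0607).

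Of the 7 membrane proteins 2 rose and 1 fell in A/J, and 2 rose and 4 fell in both C3H/HeJ and WSB/EiJ. The share higher was 28.6% in each strain, against 5.71%, 17.4% and 23.7% of all genes, and the share lower was 14.3%, 57.1% and 57.1%, against 4.73%, 30.7% and 50%. Laptm5 and Cd63 rose in every strain, and Lamp2 was called lower in every strain under percentile scaling but in none with spike-in scaling. Laptm5 is a lysosomal transmembrane protein of blood-derived cells. In A/J, Laptm5 stood at 0.27, 0.20, 0.59 and -0.39 on the deficient arrays against -0.85, -0.91, -1.55 and -0.93 on the control arrays. For C3H/HeJ the levels were 0.81, 0.83, -0.27 and -0.74 on the deficient arrays against -1.80, -2.55, -1.54 and -2.06 on the control arrays. WSB/EiJ arrays gave 0.24, 0.54, 0.39 and 0.32 on the deficient arrays against -3.28, -3.58, -3.80 and -3.34 on the control arrays. Deficient and control arrays were separate in each strain. The log2 changes were 1.23 ± 0.30 (adjusted p = 0.0111), 2.14 ± 0.30 (1.57e-05) and 3.87 ± 0.30 (1.11e-09), and a second probe gave 1.05, 2.08 and 4.14; the A/J call was lost without A/J CFD replicate 3 (adjusted p = 0.0516).

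The tetraspanin Cd63, found in late endosomes, lysosomes and exosomes, had a control level in WSB/EiJ well above that of the other strains. Cd63 stood at 4.90, 4.12, 5.34 and 3.31 in A/J deficient livers against 2.54, 3.00, 2.50 and 3.65 in A/J controls. C3H/HeJ arrays gave 5.97, 6.18, 5.34 and 4.24 on the deficient arrays against 2.52, 2.73, 2.70 and 2.67 on the control arrays. In WSB/EiJ it stood at 7.72, 7.58, 7.41 and 7.71 on the deficient arrays against 5.12, 4.94, 4.83 and 5.20 on the control arrays. A/J CFD replicate 4 lay below A/J control replicate 4, so the A/J groups overlapped, and the others did not. Cd63 rose by 1.49 ± 0.38 in A/J (adjusted p = 0.0149), 2.78 ± 0.38 in C3H/HeJ (1.35e-05) and 2.58 ± 0.38 in WSB/EiJ (4.39e-06). The A/J call was lost without any one of A/J CFD replicates 1 or 3 or A/J control replicates 1 or 3 (adjusted p up to 0.0726), and the A/J change was 2.10 without both replicates numbered 4.

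Lamp2, the membrane protein needed for fusion with autophagosomes, stood at 5.64, 5.75, 5.50 and 5.89 in A/J deficient livers against 6.10, 6.07, 6.22 and 5.91 in A/J controls. In C3H/HeJ it stood at 5.08, 5.13, 5.27 and 5.64 on the deficient arrays against 5.92, 6.02, 5.94 and 6.02 on the control arrays. The WSB/EiJ levels were 5.37, 5.65, 5.58 and 5.37 on the deficient arrays against 6.53, 6.39, 6.30 and 6.54 on the control arrays. The groups were separate in every strain, with the A/J replicates numbered 4 nearly touching. The log2 changes of Lamp2 were -0.38 ± 0.11 (adjusted p = 0.0381), -0.69 ± 0.11 (1.01e-04) and -0.95 ± 0.11 (4.33e-07); with spike-in scaling the values were -0.02, -0.21 and 0.05 (adjusted p = 0.871, 0.103 and 0.655). The A/J call was also lost with the mean of the gene's probes, median centring, no background filter, normexp with quantile normalization, only the compared groups fitted and the replicate number as a block (adjusted p from 0.0510 to 0.437). It was lost as well without any one of A/J CFD replicates 1 to 3 or A/J control replicates 1 to 3 (adjusted p up to 0.141), and a second probe gave -0.01, -0.61 and -1.06.

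Lamp1, a major glycoprotein of the lysosomal membrane, ranged from 8.43 to 8.56 on the deficient arrays against 8.29 to 8.60 on the control arrays in A/J, from 8.21 to 8.72 on the deficient arrays against 8.68 to 8.81 on the control arrays in C3H/HeJ and from 7.90 to 8.14 on the deficient arrays against 8.37 to 8.42 on the control arrays in WSB/EiJ. Only the WSB/EiJ groups were separate. Under percentile scaling the log2 change of Lamp1 was -0.27 ± 0.10 in C3H/HeJ and -0.39 ± 0.10 in WSB/EiJ. With quantile normalization these were 0.15 and 0.58, the WSB/EiJ value passing as a rise (limma, adjusted p = 3.19e-07). Lamp1 thus has no settled direction. Its difference in A/J was -0.02 ± 0.10. Mcoln1, a calcium channel of the lysosomal membrane, changed sign with the scaling as well: -0.23 ± 0.09 in C3H/HeJ (levels of 4.25 to 4.68 on the deficient arrays against 4.51 to 4.89 on the control arrays, overlapping) and -0.48 ± 0.09 in WSB/EiJ (levels of 4.02 to 4.13 on the deficient arrays against 4.53 to 4.59 on the control arrays, separate), turning to 0.01 and 0.03 with quantile normalization. In A/J Mcoln1 ranged from 4.42 to 4.58 on the deficient arrays against 4.11 to 4.38 on the control arrays without overlap, and its difference of 0.20 ± 0.09 did not pass. Scarb2, the carrier of glucocerebrosidase to the lysosome, fell in C3H/HeJ (-0.42) and WSB/EiJ (-0.41), turning to 0.06 and 0.59 with spike-in scaling. Cln3, whose loss causes a childhood neuronal ceroid lipofuscinosis in humans, passed in no strain. It ranged from 2.36 to 2.55 on the deficient arrays against 1.94 to 2.29 on the control arrays in A/J (0.28 ± 0.10), from 2.43 to 2.64 on the deficient arrays against 2.22 to 2.40 on the control arrays in C3H/HeJ (0.24 ± 0.10) and from 1.92 to 2.44 on the deficient arrays against 2.25 to 2.51 on the control arrays in WSB/EiJ (-0.19 ± 0.10), overlapping in WSB/EiJ alone, and its other tested probes gave 0.50, 0.73 and -0.12 and 0.02, -0.17 and -0.56. The C3H/HeJ calls were lost for Lamp1 without any one of 4 arrays (C3H/HeJ CFD replicates 1 or 2 or C3H/HeJ control replicates 2 or 4; adjusted p up to 0.134) and for Mcoln1 without any one of 15 (up to 0.171).

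Atp6v0d2, a d subunit of the membrane sector of the proton pump known from osteoclasts and macrophages, had the largest change and the largest difference between strains of the 37 genes. Its probe lies on the minus strand at chr4:19805367-19805426 (mm9). In A/J, Atp6v0d2 stood at -0.68, -0.48, 0.03 and -0.38 on the deficient arrays against -0.33, -0.71, -0.78 and -1.06 on the control arrays. The C3H/HeJ levels were -2.12, -1.05, -1.63 and -2.67 on the deficient arrays against -3.51, -5.13, -4.12 and -4.17 on the control arrays, and only 2 of those 4 controls were well above background. For WSB/EiJ the levels were 1.11, 1.10, 0.59 and 0.96 on the deficient arrays against -5.73, -4.36, -5.15 and -6.06 on the control arrays, and 0 of those 4 controls were well above background. All 8 A/J arrays were well above background and the A/J groups overlapped, whereas the C3H/HeJ and WSB/EiJ groups were separate. On this probe and the processed signal, the WSB/EiJ rise was at least 35.0-fold against the dimmest level called above background (measured log2 change 6.27 ± 0.36, adjusted p = 3.1e-11). With normexp and quantile normalization the log2 change of Atp6v0d2 in WSB/EiJ was 2.95, so the bound does not hold for every background treatment. The C3H/HeJ change was 2.37 ± 0.36 (4.28e-05) and the A/J difference 0.34 ± 0.36 (0.571). A second probe, above background on 13 arrays, gave 0.26, 0.65 and 4.18.

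Tfeb, the transcription factor that activates many lysosomal promoters when it enters the nucleus, passed in no strain under percentile scaling. In A/J, Tfeb stood at -0.56, -0.22, -0.78 and -0.68 on the deficient arrays against -0.67, -0.87, -0.54 and -0.86 on the control arrays. For C3H/HeJ the levels were -0.64, -0.71, -0.58 and -0.12 on the deficient arrays against -0.41, 0.08, -0.49 and -0.04 on the control arrays. WSB/EiJ arrays gave -0.91, -1.05, -1.08 and -0.94 on the deficient arrays against -1.07, -1.08, -1.08 and -0.68 on the control arrays. The groups overlapped in each strain. The differences were 0.17 ± 0.15 (adjusted p = 0.489), -0.30 ± 0.15 (0.106) and -0.01 ± 0.15 (0.935). With spike-in scaling, which moved the median of all genes upward, the WSB/EiJ difference was 0.99 and passed (limma, adjusted p = 2.00e-05). The C3H/HeJ difference was then 0.19 and did not pass (0.374). These are levels of its RNA and say nothing of the protein's place in the cell.

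The 12 members whose promoter windows held CACGTG, shown above for Lamp1, Mcoln1, Cln3, Ctsd and Gla, counted 1 rise (Ctsd) and 0 falls in A/J, and 1 rise and 7 falls in both C3H/HeJ and WSB/EiJ, with medians of -0.04, -0.25 and -0.44. The falls were 58.3% of the 12 in both strains, against 30.7% of all genes in C3H/HeJ and 50% in WSB/EiJ, and the medians stand beside -0.065, -0.16 and -0.33 over all genes, so in WSB/EiJ the share lay near the background. The 7 were the same in both strains (Ctsf, Gaa, Gla, Glb1, Lamp1, Mcoln1 and Sgsh), and of these Gla, Lamp1 and Mcoln1 turn positive with quantile normalization, Ctsf in WSB/EiJ and Glb1 in both turn positive with spike-in scaling, and Sgsh rests on 1 of its 2 probes. The 20 members without the motif counted 6 rises and 1 fall in A/J, 12 and 2 in C3H/HeJ and 10 and 5 in WSB/EiJ, with medians of 0.18, 0.34 and 0.19. The rises were 30%, 60% and 50% of these 20, against 5.71%, 17.4% and 23.7% of all genes. Among the 12 with the motif the rises were 8.33% in each strain. The falls were 5%, 10% and 25% of the 20, against 4.73%, 30.7% and 50% of all genes. The E-box division was made with the changes known and was given no test.

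The diet effects were compared between strains by interaction terms of the same fit. The diet effect in C3H/HeJ differed from that in A/J for 2 members (5.41%, against 3.56% of all genes): Atp6v0d2 upward (2.02 ± 0.51, adjusted p = 0.0306) and Gaa downward (-0.58 ± 0.16, 0.0491), against 2.09% upward and 1.47% downward over all genes. For Atp6v0d2 only 2 of the 4 C3H/HeJ control arrays were well above background. Its second probe gave diet effects of 0.65 in C3H/HeJ and 0.26 in A/J, and was above background on 1 C3H/HeJ deficient array and 0 C3H/HeJ controls. With normexp and quantile normalization the brighter probe gave 0.77 and 0.26. By limma 11 members had an unadjusted p under 0.05 in the difference of C3H/HeJ from A/J. Left out in turn, C3H/HeJ CFD replicate 4 gave 11 members called. Leaving out any one of A/J CFD replicates 1, 2 or 4, A/J control replicates 1 or 2, C3H/HeJ CFD replicate 2 or C3H/HeJ control replicate 2 gave 0. Leaving out A/J control replicate 4, C3H/HeJ CFD replicate 1, C3H/HeJ control replicate 3 or any WSB/EiJ array gave 1. These counts are given without the share of all genes called in the same fits, which they may follow. The diet effect in WSB/EiJ differed from that in A/J for 20 members (54.1%, against 50.4% of all genes), 8 upward (16.6% of all genes) and 12 downward (33.8% of all genes). It differed from that in C3H/HeJ for 11 members (29.7%, against 25.9%), 7 upward (9.19% of all genes) and 4 downward (16.7% of all genes). Atp6v0d2, Ctss, Laptm5, Ctsd, Npc2 and Asah1 had a larger rise in WSB/EiJ than in either other strain. For Ctss the difference was 3.50 ± 0.46 against A/J (adjusted p = 1.05e-05) and 2.11 ± 0.46 against C3H/HeJ (0.00271). For Laptm5 it was 2.64 ± 0.42 and 1.73 ± 0.42, and for Ctsd 0.52 ± 0.12 and 0.50 ± 0.12. The diet effect was more negative in WSB/EiJ than in either other strain for Ctsc (-0.88 ± 0.20 and -1.27 ± 0.20) and Ctsz (-0.82 ± 0.11 and -0.65 ± 0.11). The interaction of WSB/EiJ with A/J turned positive with quantile normalization for Ctsa, Lamp1 and Lamp2, and with spike-in scaling for these with Cln3, Neu1 and Tpp1. Cd63, which rose in each strain, passed in none of the 3 interaction tests.

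On the control diet the strains differed for 16 members between C3H/HeJ and A/J (43.2%, against 24.6% of all genes), 21 between WSB/EiJ and A/J (56.8%, against 45.1%) and 23 between WSB/EiJ and C3H/HeJ (62.2%, against 40.5%). The first-named strain was higher for 7, 9 and 10 of these, against 14%, 26.4% and 21.7% of all genes, and lower for 9, 12 and 13, against 10.5%, 18.7% and 18.9%. A base change under a probe can alter its signal between strains, and this was not tested. WSB/EiJ controls had the lowest levels of Laptm5 and Ctss: Laptm5 averaged -3.50 ± 0.24, against -1.99 ± 0.43 in C3H/HeJ and -1.06 ± 0.33 in A/J (SD, n = 4 each), and Ctss averaged 1.40 ± 0.18, against 2.45 ± 0.32 and 3.57 ± 0.56. WSB/EiJ minus C3H/HeJ was -1.52 ± 0.30 for Laptm5 (adjusted p = 3.08e-04) and -1.04 ± 0.32 for Ctss (0.0137), and WSB/EiJ minus A/J was -2.44 ± 0.30 and -2.17 ± 0.32. C3H/HeJ minus A/J was -1.12 ± 0.32 for Ctss (0.0148), a call lost without A/J control replicate 2 or 4 (adjusted p up to 0.0563). Cd63 controls averaged 5.02 ± 0.16 in WSB/EiJ, against 2.65 ± 0.09 in C3H/HeJ and 2.92 ± 0.53 in A/J; WSB/EiJ exceeded both (2.37 ± 0.38 and 2.10 ± 0.38), and the difference between C3H/HeJ and A/J was -0.27 ± 0.38 (adjusted p = 0.651). Gaa controls, on the brightest probe, averaged 4.80 ± 0.12 in C3H/HeJ, 5.34 ± 0.14 in WSB/EiJ and 6.14 ± 0.14 in A/J, and each of the 3 differences passed the threshold. The size of these differences depended on the probe. C3H/HeJ minus A/J was -1.34 on the brightest Gaa probe and -0.36 on the second probe above background on all arrays. WSB/EiJ minus A/J was -0.80 and -0.17 on these probes, and WSB/EiJ minus C3H/HeJ 0.54 and 0.19. Sgsh controls, on the brighter probe, averaged 8.93 ± 0.29 in WSB/EiJ, against 7.27 ± 0.42 in C3H/HeJ and 6.92 ± 0.14 in A/J. Atp6v0d2 controls were at least 11.1-fold lower in WSB/EiJ than in A/J (adjusted p = 2.17e-09) by the brighter probe. C3H/HeJ controls were lower than A/J controls as well (adjusted p = 2.88e-07); with 2 of the 4 C3H/HeJ control arrays well above background, the measured log2 difference of -3.51 ± 0.36 is not exact, and the second probe, above background on 0 of those 4, gave -2.38.

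Which falls kept their sign depended on the scaling. All 7, 15 and 13 rises in A/J, C3H/HeJ and WSB/EiJ kept their sign under quantile normalization, median centring, normexp with quantile normalization, the authors' deposited table and spike-in scaling. Median centring and spike-in scaling moved every change in a strain upward by the same amount, so no rise could turn under them. The deposited values hardly moved any change. Only quantile normalization, with or without normexp, could have turned a rise. Of the falls, 1 of 1, 6 of 9 and 7 of 13 kept their sign under the first 4 of these. With quantile normalization Ctsh, Gla, Lamp1 and Neu1 passed as rises in WSB/EiJ (limma, adjusted p from 3.19e-07 to 0.0183). Spike-in scaling kept 1 of 1, 4 of 9 and 3 of 13, the last being Sgsh (-0.85), Gaa (-0.16) and Ctsc (-0.15), of which Gaa and Ctsc no longer passed (adjusted p = 0.180 and 0.476). With only the compared groups fitted, the A/J calls of Cd63, Ctsd, Lamp2, Manba, Psap and Tpp1 were lost (adjusted p from 0.0540 to 0.114), and those of Hexa and Laptm5 were not.

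**Figure D4:**
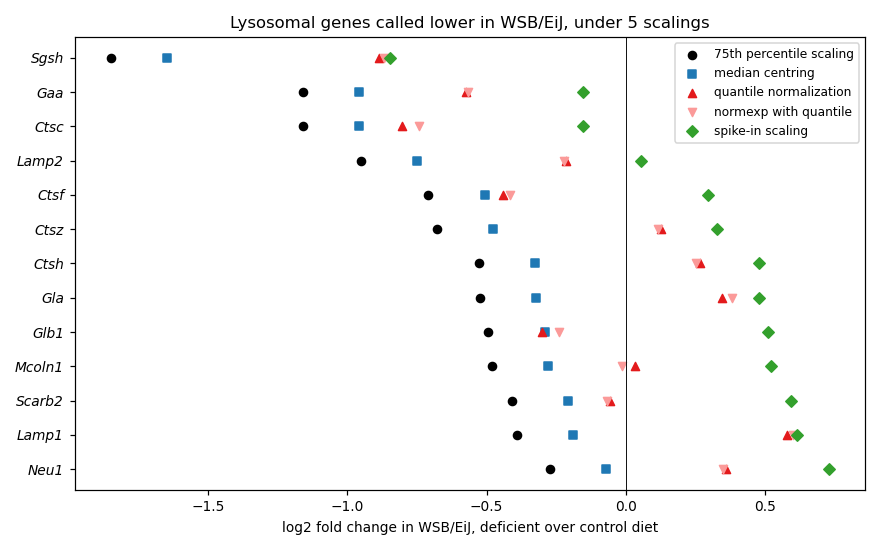
Log2 fold change in WSB/EiJ, deficient over control diet, of the 13 lysosomal genes called lower under 75th percentile scaling, recomputed with median centring, quantile normalization, normexp with quantile normalization and spike-in scaling. Sgsh, Gaa and Ctsc stay below 0 under all 5, whereas Ctsz, Ctsh, Gla, Lamp1, Mcoln1 and Neu1 are above 0 under quantile normalization, as for Lamp1 at 0.58.

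The rest of the lysosome was counted in lists of other genes of each role. Among other proteases and hydrolases, 3 of 19 rose and 0 fell in A/J, 9 rose and 3 fell in C3H/HeJ, and 9 rose and 5 fell in WSB/EiJ, with medians of 0.27, 0.26 and 0.54 beside -0.065, -0.16 and -0.33 over all genes. In WSB/EiJ 47.4% of this list were higher and 26.3% lower, against 23.7% and 50% of all genes. In C3H/HeJ 47.4% were higher and 15.8% lower, against 17.4% and 30.7%. In A/J 15.8% were higher and 0% lower, against 5.71% and 4.73%. The asparaginyl protease Lgmn rose in each strain (0.63, 0.84 and 1.27), and the aspartic protease Ctse (1.87) and the peptidase Dpp7 (0.31) rose in A/J. The thiol reductase Ifi30, which unfolds antigens, rose in C3H/HeJ (1.72) and WSB/EiJ (3.52), and the amidase Naaa rose in C3H/HeJ (1.16). The lysozymes Lyz1 and Lyz2, near-identical copies whose probes may not tell them apart, rose in WSB/EiJ (4.40 and 4.88). Among other glycosidases and sulfatases 4 rose and 2 fell of 19 in A/J, 4 and 5 in C3H/HeJ and 6 and 7 in WSB/EiJ. The rises were 21.1%, 21.1% and 31.6% of this list, against 5.71%, 17.4% and 23.7% of all genes. The falls were 10.5%, 26.3% and 36.8%, against 4.73%, 30.7% and 50%. Man2b2 rose in C3H/HeJ by 1.08, and the sulfatase Arsa rose in A/J by 1.16. The GM2 activator Gm2a fell in each strain (-0.82, -0.90 and -1.32), the sulfatase Galns fell in A/J (-0.65) and WSB/EiJ (-1.21), and the hyaluronidase Hyal1 fell in WSB/EiJ (-1.43).

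Of 22 other membrane and transport genes 3 rose and 2 fell in A/J, 4 and 5 in C3H/HeJ and 5 and 12 in WSB/EiJ, shares of 22.7% and 54.5% in WSB/EiJ near the 23.7% and 50% of all genes, and there 9 of the 12 falls kept their sign with quantile normalization. In A/J 13.6% of this list rose and 9.09% fell, against 5.71% and 4.73% of all genes. In C3H/HeJ 18.2% rose and 22.7% fell, against 17.4% and 30.7%. Cd68, a glycoprotein of macrophage lysosomes, rose in each strain (1.17, 1.67 and 4.15). Gpr137b rose in C3H/HeJ (2.69) and the metal transporter Slc11a1 in WSB/EiJ (3.35). The transporter Abca2 fell in each strain (-0.59, -0.97 and -1.20), and Lamp3 fell in A/J (-0.38). Of 18 other subunits of the proton pump 3 rose and 1 fell in A/J, 3 and 3 in C3H/HeJ and 4 and 7 in WSB/EiJ, shares of 22.2% and 38.9% in WSB/EiJ against 23.7% and 50% of all genes, and there 3 of the 7 falls kept their sign with quantile normalization. In A/J 16.7% of these subunits rose and 5.56% fell, against 5.71% and 4.73% of all genes. In C3H/HeJ 16.7% rose and 16.7% fell, against 17.4% and 30.7%. The medians of these subunits were 0.11, -0.03 and -0.03, and 0.21, 0.15 and 0.37 with quantile normalization. Atp6v1c1 (0.31), Atp6v1a (0.27) and Atp6v0e (0.29) rose in A/J and Atp6v0e2 (0.93) and Atp6v0e (0.36) in C3H/HeJ. Atp6v1h fell in C3H/HeJ (-0.40) and WSB/EiJ (-0.52) and Atp6v0a1 in WSB/EiJ (-0.54), all turning positive with spike-in scaling, and Atp6v1f fell in WSB/EiJ (-0.46), turning positive with quantile normalization.

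Markers of macrophages and of other liver cells were counted beside the members. Over all genes in A/J, C3H/HeJ and WSB/EiJ, 5.71%, 17.4% and 23.7% were higher and 4.73%, 30.7% and 50% lower. Of 17 macrophage and monocyte markers 8, 15 and 15 rose in A/J, C3H/HeJ and WSB/EiJ (47.1%, 88.2% and 88.2%). In the same order 0, 0 and 1 fell, with medians of 0.93, 1.73 and 3.51. The mean level of this list ranged from 0.94 to 1.93 on A/J deficient arrays against 0.00 to 0.73 on A/J control arrays, from 0.90 to 2.20 against -0.58 to 0.05 in C3H/HeJ and from 2.25 to 2.46 against -1.35 to -1.07 in WSB/EiJ. Itgax, Ccr2 and Cybb were above background on 0 of the 4 WSB/EiJ control arrays. Of 9 markers of lipid-associated macrophages 6, 7 and 8 rose (66.7%, 77.8% and 88.9%) and 0, 1 and 0 fell, with medians of 1.71, 3.02 and 5.86. Gpnmb and Mmp12 were above background on 0 control arrays of any strain. Of 13 resident Kupffer cell markers 2, 7 and 9 rose (15.4%, 53.8% and 69.2%) and 0, 0 and 1 fell. Hepatocyte markers went the other way, with 3, 12 and 12 of 12 lower (25%, 100% and 100%) and medians of -0.40, -0.72 and -1.30. With quantile normalization these medians were -0.07, -0.20 and -0.28. The mean level of the hepatocyte list ranged from 7.82 to 8.49 on deficient against 8.41 to 8.76 on control arrays in A/J, from 7.39 to 8.34 against 8.50 to 8.85 in C3H/HeJ and from 7.50 to 7.88 against 8.89 to 9.10 in WSB/EiJ. Stellate and myofibroblast markers rose for 2, 7 and 9 of 10 (20%, 70% and 90%). The part of these cell types in the changes of the lysosomal genes was not tested.

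**Figure D5:**
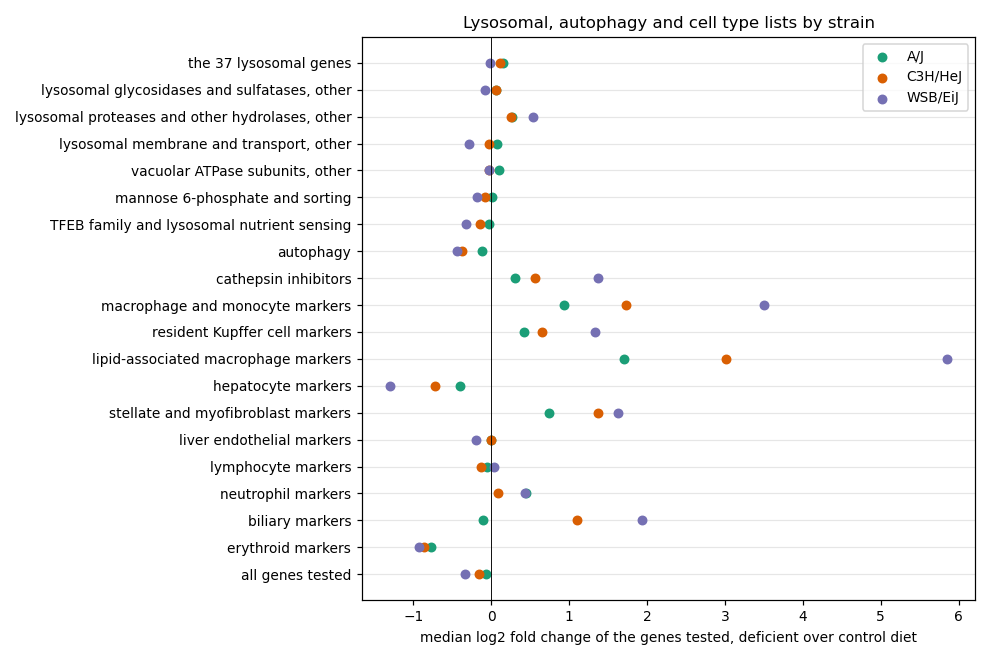
Median log2 fold change, deficient over control diet, of the 37 lysosomal genes, of other lysosomal and autophagy lists, of cell type marker lists and of all genes tested, in A/J, C3H/HeJ and WSB/EiJ, under 75th percentile scaling. The 37 genes lie at 0.15, 0.11 and -0.01, while the macrophage and monocyte markers lie at 0.93, 1.73 and 3.51 and the hepatocyte markers at -0.40, -0.72 and -1.30; medians near 0, such as those of the proton pump subunits, change sign with the scaling.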

How the data were processed

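Liver RNA was labelled with Cy3 (Quick-Amp kit) and hybridised to 24 one-colour arrays on 3 slides, per the labels' protocols. Signals were extracted with Agilent Feature Extraction 10.7, per the submitters' processing notes. The deposited processed signal is a linear intensity, already background-subtracted and detrended within the array, per the file headers. The normalized values the authors deposited, also linear intensity, equal that signal times a constant for each array. Other columns deposited with it and used here were mean signal, background median signal and flags of 0 or 1 per spot.

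From these files, 3332 spots flagged as outliers were dropped, spots of a probe were averaged, and levels were log2 intensity minus the array's 75th percentile. A probe was kept when every array of some group called it well above background (20734 probes), and each gene took its brightest tested probe (15542 genes). Of 55681 gene probes 32911 were named: 26762 by accession, 3819 by symbol, 639 by synonym and 1691 by the name in the file. Tfeb was found through its synonym. Of 12 members with several tested probes, 6 had probes that differed in sign or by over 1 (Atp6v0d2, Cln3, Ctsa, Ctsc, Gusb and Sgsh). Limma 3.58.1 in R 4.3.3 fitted the 6 group means together, with Benjamini-Hochberg adjustment over all genes. Log2 changes are CFD minus control, given with their standard errors; levels by group are mean ± SD of 4 arrays.

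A bound for a probe below background sets the bright group's mean against, per array, the higher of the dimmest signal called above background and the probe's own. On simulated data, 200 genes changed by 1 on the log2 scale were recovered for 67.5%, 66% and 67.5% in A/J, C3H/HeJ and WSB/EiJ, with 2.17%, 4.35% and 5.59% of calls false. These were 200 of 15542 genes with independent noise, whereas 10.4%, 48.1% and 73.6% of genes were called in the data. The adjustment depends on that share, so the simulated recovery does not carry over to these comparisons.

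Full values were given for members called in all strains, the 6 largest positive and 3 largest negative changes in each strain, members with a diet effect differing between strains, the 3 largest differences between control strains, Atp6v0d2 and Tfeb; lists name up to 3 genes with the lowest adjusted p in each strain. Members, lists and tests were chosen with earlier results of these data known. Alternatives changed the normalization (quantile, median centring, normexp with an offset of 50, the deposited table, 7 spike-in probes), the filter, the probe choice, slide or replicate blocks, the samples fitted, the prior, array weights and single arrays. Replicate numbers were checked and did not pair the samples.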

Additional observations from a re-analysis of the deposited data

Results flagged for a closer look

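In 14 of 222 sets of 4 arrays (37 members in 6 groups), 1 array stood apart from the other 3 by Dixon's criterion; chance gives about 1 in 20 such sets. Among the A/J CFD arrays, Ctsb was highest on replicate 4, at 6.91 against 6.87 on the nearest array and Lamp1 was highest on replicate 4, at 8.56 against 8.43 on the nearest array. Among the WSB/EiJ CFD arrays, Ctsb was lowest on replicate 4, at 7.0 against 7.09 on the nearest array and Ctsk was lowest on replicate 3, at 0.81 against 1.72 on the nearest array. Among the C3H/HeJ CFD arrays, Ctsc was highest on replicate 1, at 3.11 against 2.86 on the nearest array and Lipa was lowest on replicate 1, at 3.35 against 3.38 on the nearest array. Among the A/J control arrays, Ctsh was lowest on replicate 4, at 7.41 against 7.66 on the nearest array, Psap was lowest on replicate 4, at 4.48 against 5.16 on the nearest array, Scarb2 was highest on replicate 3, at 3.17 against 2.91 on the nearest array and Laptm5 was lowest on replicate 3, at -1.55 against -0.93 on the nearest array. Among the C3H/HeJ control arrays, Scarb2 was highest on replicate 4, at 3.45 against 3.26 on the nearest array and Gusb was highest on replicate 2, at 2.57 against 2.43 on the nearest array. Among the WSB/EiJ control arrays, Manba was highest on replicate 3, at 0.94 against 0.62 on the nearest array and Tfeb was highest on replicate 4, at -0.68 against -1.07 on the nearest array. Levels are log2 values relative to the 75th percentile of the array.

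Interaction terms of the same fit found a diet effect that differed between strains, at an adjusted p of 0.05 by limma with Benjamini-Hochberg adjustment, for these members. The log2 diet effect in C3H/HeJ minus that in A/J was positive for Atp6v0d2 (2.02) and negative for Gaa (-0.58), with adjusted p from 0.0306 to 0.0491. The log2 diet effect in WSB/EiJ minus that in A/J was positive for Atp6v0d2 (5.92), Ctss (3.50), Laptm5 (2.64), Ctsk (2.15), Npc2 (0.61), Ctsd (0.52), Asah1 (0.44) and Ppt1 (0.42) and negative for Sgsh (-1.77), Gaa (-0.97), Ctsc (-0.88), Ctsz (-0.82), Mcoln1 (-0.68), Ctsf (-0.65), Lamp2 (-0.57), Neu1 (-0.54), Cln3 (-0.47), Ctsa (-0.40), Tpp1 (-0.38) and Lamp1 (-0.37), with adjusted p from 1.17e-07 to 0.0491. The log2 diet effect in WSB/EiJ minus that in C3H/HeJ was positive for Atp6v0d2 (3.90), Ctss (2.11), Laptm5 (1.73), Ctsd (0.50), Npc2 (0.49), Manba (0.46) and Asah1 (0.39) and negative for Ctsc (-1.27), Ctsz (-0.65), Cln3 (-0.43) and Man2b1 (-0.42), with adjusted p from 2.81e-05 to 0.0455. With quantile normalization the difference of WSB/EiJ from A/J turned positive for Ctsa, Lamp1 and Lamp2, and with spike-in scaling for these with Cln3, Neu1 and Tpp1. Sgsh had this difference on the brighter of its probes. Atp6v0d2 was below background on all WSB/EiJ control arrays and well above it on only 2 of the 4 C3H/HeJ control arrays, so its differences are measured values and not bounds.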

How the results depend on the processing

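The numbers of members called in C3H/HeJ, in WSB/EiJ, in the differences of WSB/EiJ from A/J and from C3H/HeJ and between strains on the control diet stayed within 1.5 times the values given, except for 15 called in C3H/HeJ with only the compared groups fitted and 6 called between C3H/HeJ and A/J controls with spike-in scaling. In A/J, where 8 members were called, the count was 14 with array weights, 5 with no background filter, 14 with normexp with quantile normalization, 2 with only the compared groups fitted, 16 with quantile normalization and 21 with spike-in scaling. The share of all genes called under each setting is not given beside the counts in this section. A count that moves may follow all genes and is no result about the members. For the difference of C3H/HeJ from A/J, where 2 members were called, it was 0 with A/J control and A/J CFD replicates numbered 4 left out, 11 with array weights, 0 with the mean of a gene's probes, 1 with median centring, 0 with no background filter, 1 with normexp with quantile normalization, 0 with only the compared groups fitted, 1 with probes above background on all arrays only, 1 with the replicate number as a block, 1 with the slide as a block and 0 with spike-in scaling; 11 members had an unadjusted p under 0.05 by limma. Replicate numbers did not pair the samples: same-numbered arrays correlated at -0.35 to 0.066 over 12 pairs of arrays, and 0 correlated best with its own number. Within each of the 3 slides the called members kept their sign for 8 of 8 in A/J, 23 or 24 of 24 in C3H/HeJ and 26 of 26 in WSB/EiJ. The calls came from these same arrays, so this agreement was largely fixed in advance and is no independent check. Leaving out each array in turn gave 2 to 10 members called in A/J, 18 to 26 in C3H/HeJ and 24 to 27 in WSB/EiJ, 0 to 11 for the difference of C3H/HeJ from A/J, 17 to 22 for WSB/EiJ from A/J and 8 to 13 for WSB/EiJ from C3H/HeJ, and on the control diet 12 to 17 between C3H/HeJ and A/J, 20 to 21 between WSB/EiJ and A/J and 20 to 24 between WSB/EiJ and C3H/HeJ. The changes whose sign turned are given next, and their cause was not tested. With quantile normalization, in C3H/HeJ, the sign turned for Gla (0.030), Lamp1 (0.15) and Mcoln1 (0.0054). With quantile normalization, in WSB/EiJ, the sign turned for Ctsh (0.27), Ctsz (0.13), Gla (0.34), Lamp1 (0.58), Mcoln1 (0.031) and Neu1 (0.36). Of these Ctsh, Gla, Lamp1 and Neu1 passed as rises by limma (adjusted p up to 0.0183), and Ctsz and Mcoln1 did not pass. With quantile normalization, for WSB/EiJ minus A/J, the sign turned for Ctsa (0.16), Lamp1 (0.36) and Lamp2 (0.021). With normexp and quantile normalization, in C3H/HeJ, the sign turned for Gla (0.19) and Lamp1 (0.12). With normexp and quantile normalization, in WSB/EiJ, the sign turned for Ctsh (0.25), Ctsz (0.11), Gla (0.38), Lamp1 (0.60) and Neu1 (0.35). With normexp and quantile normalization, for WSB/EiJ minus A/J, the sign turned for Ctsa (0.20), Lamp1 (0.38) and Lamp2 (0.023). With spike-in scaling, in C3H/HeJ, the sign turned for Gla (0.11), Glb1 (0.14), Lamp1 (0.21), Mcoln1 (0.26), Scarb2 (0.063) and Tfeb (0.19). With spike-in scaling, in WSB/EiJ, the sign turned for Ctsf (0.29), Ctsh (0.48), Ctsz (0.33), Gla (0.48), Glb1 (0.51), Lamp1 (0.61), Lamp2 (0.052), Mcoln1 (0.52), Neu1 (0.73), Scarb2 (0.59) and Tfeb (0.99). All of these but Lamp2 passed as rises by limma (adjusted p up to 0.0285). With spike-in scaling, for WSB/EiJ minus A/J, the sign turned for Cln3 (0.18), Ctsa (0.24), Lamp1 (0.27), Lamp2 (0.076), Neu1 (0.11) and Tpp1 (0.27). With spike-in scaling, for WSB/EiJ minus C3H/HeJ, the sign turned for Cln3 (0.091) and Man2b1 (0.091). The sign also turned for Tfeb (0.19) in WSB/EiJ with median centring, Tfeb (0.014) in WSB/EiJ with array weights and Tfeb (0.014) in WSB/EiJ with the slide as a block. Tfeb in WSB/EiJ, from -0.049 to 0.085 over single arrays left out, turned to 0.0052 without WSB/EiJ CFD replicate 2, 0.013 without WSB/EiJ CFD replicate 3 and 0.085 without WSB/EiJ control replicate 4. Over all settings, single arrays left out included, 3653 values of named members kept their direction and side of the threshold, 301 kept direction but lost the call, 13 kept direction and gained it, and 53 turned. The 4 arrays a group limit the precision, and Atp6v0d2 on WSB/EiJ and some C3H/HeJ control arrays is bounded by background. The spike-in scaling and the fit without the A/J replicates numbered 4 were chosen after seeing the data.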

Other observations

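Genes that feed the lysosome rather than form it were counted in the same way. Of 24 autophagy genes 0 rose and 0 fell in A/J (limma; 5 at an unadjusted p under 0.05), 0 rose and 16 fell in C3H/HeJ, and 1 rose and 19 fell in WSB/EiJ. The falls were 66.7% and 79.2% of the list in C3H/HeJ and WSB/EiJ, against 30.7% and 50% of all genes, and the median log2 changes -0.12, -0.38 and -0.44, beside -0.065, -0.16 and -0.33 over all genes. All 16 and 15 of the 19 falls kept their sign with quantile normalization, and 7 and 7 with spike-in scaling. The kinase Ulk2, which starts autophagosome formation, fell in C3H/HeJ (-1.18), as did the membrane carrier Atg9a (-0.87) and the Atg8 family member Gabarapl2 (-0.64). In WSB/EiJ the mitophagy receptor Bnip3 (-1.83) and the Atg8 family member Map1lc3a (-1.14) fell, and Atg16l1, part of the enzyme that attaches lipid to that family, was -0.84, turning positive with spike-in scaling. In A/J Atg5 (-0.37), Atg7 (0.27) and Atg3 (-0.31) had the lowest adjusted p and did not pass.

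Of 21 genes of the Tfeb family and of nutrient sensing at the lysosome 2 rose and 0 fell in A/J, 2 rose and 3 fell in C3H/HeJ, and 2 rose and 13 fell in WSB/EiJ. The rises were 9.52% of the list in each strain, against 5.71%, 17.4% and 23.7% of all genes, and the falls in C3H/HeJ 14.3%, against 30.7%. The falls in WSB/EiJ were 61.9% of the list, against 50% of all genes, and the list's median of -0.32 was close to the -0.33 of all genes. Of the 13, 10 kept their sign with quantile normalization and 0 with spike-in scaling. Tfec, the member of the family known from macrophages, rose in C3H/HeJ (0.92) and WSB/EiJ (1.35). The kinase Mtor rose in A/J (0.35) and was -0.58 in WSB/EiJ, turning positive with spike-in scaling, as did Lamtor2 in WSB/EiJ (-0.95) and Tfe3 in C3H/HeJ (-0.29). Rragc rose in A/J (0.29), Tsc1 fell in C3H/HeJ (-0.59), and Lamtor2 in A/J (-0.22) did not pass. Of 22 genes of mannose 6-phosphate tagging and sorting 0 changed in A/J (limma; 7 at an unadjusted p under 0.05), where Grn (0.41), Gga2 (0.30) and Ap3b1 (-0.24) had the lowest adjusted p. In C3H/HeJ 5 rose and 6 fell, among them Ap1s1 (0.35), Vps16 (-0.38) and Ap3b1 (-0.46), and in WSB/EiJ 5 rose and 9 fell. In these strains 27.3% and 40.9% were lower, against 30.7% and 50% of all genes. The share higher was 22.7% in both, against 17.4% and 23.7%. The sorting receptor Sort1 rose in WSB/EiJ (2.36), and Ap3b1 (-0.65) and Vps16 (-0.41) were lower there; the falls of both genes turned positive with spike-in scaling. Cathepsin inhibitors rose for 1, 4 and 4 of 6 and fell for 0, 0 and 1, with medians of 0.30, 0.56 and 1.36. The rises were 16.7%, 66.7% and 66.7%, against 5.71%, 17.4% and 23.7% of all genes. The falls were 0%, 0% and 16.7%, against 4.73%, 30.7% and 50%. Cystatin B (Cstb) rose in each strain (0.59, 1.20 and 1.65), cystatin C (Cst3) in WSB/EiJ (1.08), Serpina3g in C3H/HeJ (2.10) and WSB/EiJ (3.46) and Serpinb6a in C3H/HeJ (0.81); Cst3 (0.26) and Serpinb1a (-1.02) did not pass in A/J.

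Markers of other cells a liver sample holds were counted as well, with rises and falls in A/J, C3H/HeJ and WSB/EiJ in that order. Over all genes 5.71%, 17.4% and 23.7% rose and 4.73%, 30.7% and 50% fell. Endothelial markers rose for 1, 2 and 1 (11.1%, 22.2% and 11.1%) and fell for 0, 0 and 3 of 9 (0%, 0% and 33.3%). Lymphocyte markers rose for 0, 2 and 1 (0%, 28.6% and 14.3%) and fell for 1, 2 and 3 of 7 (14.3%, 28.6% and 42.9%). Neutrophil markers rose for 0, 0 and 1 (0%, 0% and 33.3%) and fell for 1, 1 and 1 of 3 (33.3% each). Biliary markers rose for 0, 2 and 5 (0%, 33.3% and 83.3%) and fell for 0 of 6. Erythroid markers rose for 0 and fell for 2, 4 and 4 of 4 (50%, 100% and 100%).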
